A study of Danio rerio with 6 samples.

Results

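The genes of the proteasome and of the COP9 signalosome were followed in zebrafish embryos of the Tg(fli1a:eGFP) line, in GFP+ cells taken at 28 hours post fertilization. Members were chosen with earlier results of these data known. They were matched by gene name, as names that begin with psma to psmg and a digit, the COP9 names cops2 to cops9, and gps1, ignoring case. This gave 60 of the 21837 named rows of the table. Of these, 50 are proteasome subunits, assembly chaperones, activators or an inhibitor, 8 are COP9 subunits, and 2 (psmc3ip and psme3ip1) share only the beginning of the name. The first group was 3 libraries from embryos that carried a clec16a morpholino (clec16a MO), and the second was 3 libraries from embryos with a control morpholino (control MO). These groups follow the genotype label. The sample titles begin with NegaP for clec16a MO and with Exp2D for control MO, so the title stems differ along with the groups. Morpholinos are antisense oligomers that stop the translation or the splicing of a target transcript, and which of these applies to the clec16a MO is not stated. All 6 libraries share the transgene, the age and a label of no culture. The series names as its question the role of clec16a in hematopoietic stem and progenitor cells, and its title names mitophagy.

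The transgene marks cells by a fli1a promoter, known to be active in endothelium and also in some cells of the blood and the pharyngeal arches. How the cells were gated is not stated. Neither is a clutch, batch or sequencing day, so the p-values rest on a spread among libraries that may be technical, and a batch that followed the groups cannot be told apart from the morpholino.

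The proteasome degrades proteins tagged with ubiquitin. Its 20S core is a barrel of outer alpha rings, which control entry, and inner beta rings, which hold the protease sites, and each ring carries its subunits in a fixed stoichiometry. The 19S cap binds ubiquitin chains, removes them and unfolds the substrate with a ring of ATPases. The COP9 signalosome, whose subunits resemble those of the 19S lid, removes the ubiquitin-like protein Nedd8 from cullins, the scaffolds of the largest family of ubiquitin ligases.

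The values are deposited FPKM, fragments scaled by transcript length and library size, and the sequencing depth behind them is unknown. The targeted gene clec16a was at 5.68, 5.57 and 4.24 FPKM in clec16a MO libraries and at 14.4, 14.1 and 14.3 FPKM in control MO libraries (limma log2 difference −1.32, SE 0.13, adjusted p = 5.5e-05). The groups differed across most of the table: 9877 of 12153 genes tested (81.3%) passed the test, 3239 higher (26.7%) and 6638 lower (54.6%) in clec16a MO cells. Libraries of clec16a MO cells held fewer rows above 0 (15580 ± 378, against 19284 ± 33.5 in control MO libraries, SD, n = 3 each) and agreed less among themselves (Pearson correlation across genes of 0.970 to 0.977, against 0.995 to 0.996 among control MO libraries). Of 12 endothelial marker genes tested, 11 fell and none rose, with a summed 1363 to 1783 FPKM in clec16a MO libraries and 3759 to 3849 FPKM in control MO libraries, and erg stood at 0 in all 3 clec16a MO libraries. fli1a, whose promoter drives the GFP, was at 109, 96.8 and 114 FPKM in clec16a MO libraries and 1096, 1083 and 967 FPKM in control MO libraries, 9.83-fold lower in clec16a MO cells. All 12 erythroid markers rose, with sums of 17722 to 29351 FPKM in clec16a MO libraries and 1249.8 to 1407 FPKM in control MO libraries. Of 14 myeloid marker rows tested, 13 rose (2952 to 4276 against 59.3 to 62.9 FPKM), and mpx and mpeg1.1 were listed at 0 in each control MO library. Several of these rows share the name mfap4, ignoring case, and the largest of them had means of 1050 and 968 FPKM in clec16a MO libraries. The myeloid markers marco and csf1ra stayed below the filter. All 10 muscle markers fell (20.4 to 32.8 against 2939 to 2976 FPKM), as did all 9 epidermis markers tested (58.9 to 67.6 against 407 to 416 FPKM). In these bulk samples, fewer cells of a type and less RNA per cell cannot be told apart, and the part of these markers and library differences in the results on proteasome genes was not tested.

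Of the 60 members, 57 had a mean of at least 1 FPKM and were tested. In clec16a MO cells 23 of them (40.4%) rose, against 26.7% of all genes, and 20 (35.1%) fell, against 54.6% of all genes, while 14 did not pass the threshold of an adjusted p below 0.05. The call share in either direction was 75.4% among members and 81.3% among all genes. The median log2 difference of the members was 0.06, beside −0.66 over all genes tested. The split between directions depends on the scaling of the libraries. With each library centred on its median, which moves the median of all genes up by 0.69, 36 members were called higher and 15 lower (39.7% and 38.1% of all genes). With quantile normalization, which moves it up by 0.62, the counts were 23 and 22 (38% and 39.8% of all genes). Changes of at least 1 on the log2 scale occurred in 33 of 57 members (57.9%) and in 59.5% of all genes. The clec16a MO and control MO libraries did not overlap for 44 members (77.2%), beside 83.7% of all genes. Members of the same complex moved in opposite directions. With the name-only matches left out, differences ran from −7.11 for psmd3 to 3.05 for psme2. The name-only match psmc3ip stood at 3.22.

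**Figure D1:**
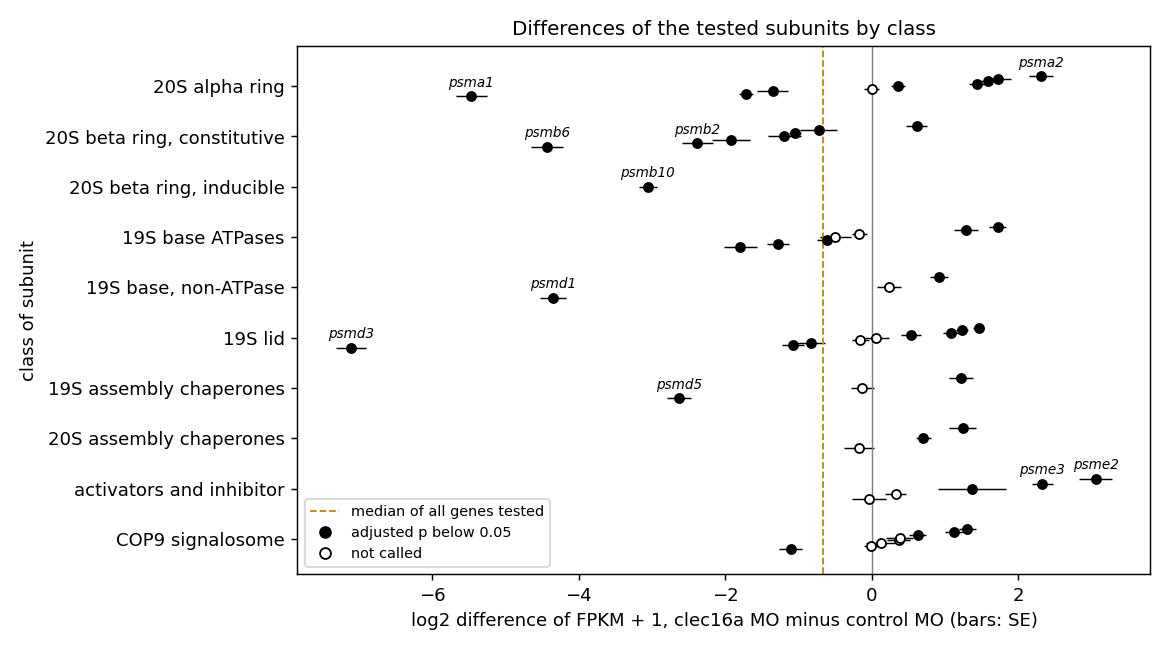
Log2 difference (clec16a MO minus control MO, on log2(FPKM + 1)) of the 55 members tested that are subunits, chaperones, activators or the inhibitor, arranged by class. Each point is 1 gene with its SE as a bar, filled where the adjusted p is below 0.05 and open otherwise, and the dashed line is the median of all genes tested (−0.66). Most classes hold genes on both sides of 0, the constitutive beta ring has 6 of 7 below it, and psmd3 (−7.11) and psma1 (−5.47) lie farthest down.

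The outer alpha ring of the 20S core was split. Of 9 alpha subunit rows tested, 5 rose (55.6%), 3 fell (33.3%) and 1 did not pass. Over all genes tested, 26.7% rose and 54.6% fell. The alpha counts were 6, 3 and 0 with median centring (39.7% higher and 38.1% lower of all genes). With quantile normalization the alpha counts were 4, 4 and 1 (38% and 39.8% of all genes). The largest fall was that of psma1, which had 2.07, 0.752 and 1.0 FPKM in clec16a MO libraries and 96.2, 95.9 and 97.5 FPKM in control MO libraries. It was 75.7-fold lower in clec16a MO cells (limma log2 difference −5.47, SE 0.21, adjusted p = 6e-07), with no overlap between groups. The size of this fold rests on clec16a MO values near 1 FPKM and is imprecise. psma4 had 54.2, 45.2 and 53.4 FPKM in clec16a MO libraries against 173, 171 and 164 FPKM in control MO libraries (log2 difference −1.72, adjusted p = 3.2e-06). The largest rise in the ring was that of psma2, at 549, 358 and 379 FPKM in clec16a MO libraries and 86.1, 82.7 and 84.8 FPKM in control MO libraries (log2 difference 2.30, SE 0.16, adjusted p = 9.2e-06). All 3 clec16a MO libraries lay above all control MO libraries, and their mean was 5.07-fold higher.

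A second row, named PSMA2 in capitals, had 113, 81.7 and 86.4 FPKM in clec16a MO libraries and 30.8, 31.0 and 29.2 FPKM in control MO libraries (log2 difference 1.58, adjusted p = 2.5e-05). RefSeq holds 2 zebrafish genes with the synonym psma2, and which row is which gene cannot be told from the names, so the division of reads between them is uncertain. psma3 reached 1452, 877 and 1028 FPKM in clec16a MO libraries, against 333, 330.4 and 329 FPKM in control MO libraries (log2 difference 1.72, SE 0.18, adjusted p = 6.8e-05), and was the most abundant alpha subunit in every library. psma5 had 532, 431 and 555 FPKM in clec16a MO libraries and 189, 183 and 181 FPKM in control MO libraries (log2 difference 1.44, adjusted p = 1.4e-05). No row was named psma7. psma8, in mammals a testis form of the subunit encoded by psma7, had 298, 237 and 279 FPKM in clec16a MO libraries and 279, 261 and 272 FPKM in control MO libraries, and the groups overlapped (adjusted p = 0.98, but called higher with median centring, log2 difference 0.69, and lower with quantile normalization, −0.26).

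Of the 7 constitutive subunits of the beta ring 6 fell and 1, psmb3, rose, beside 54.6% and 26.7% of all genes tested, with a median log2 difference of −1.20. With quantile normalization 6 were called lower and 1 higher, beside 39.8% and 38% of all genes. Median centring gave 4 and 1, beside 38.1% and 39.7% of all genes. The protease subunit psmb6, which carries the caspase-like site, had 11.8, 5.87 and 7.80 FPKM in clec16a MO libraries and 198, 207 and 189 FPKM in control MO libraries. It was 23.3-fold lower in clec16a MO cells (limma log2 difference −4.44, SE 0.22, adjusted p = 1.6e-06). The other protease subunits fell less. psmb5, with the chymotrypsin-like site, had 118, 106 and 114 FPKM in clec16a MO libraries against 241, 232 and 229.5 FPKM in control MO libraries (log2 difference −1.05, adjusted p = 1.4e-05). psmb7, with the trypsin-like site, had 277, 128 and 203 FPKM in clec16a MO libraries against 324, 325 and 310.0 FPKM in control MO libraries (log2 difference −0.73, adjusted p = 0.032). That call was lost with median centring (log2 difference −0.03), with no filter on low values, without any one of the control MO replicates and without clec16a MO replicate 3.

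Among the beta subunits without a protease site, psmb2 had 37.8, 20.04 and 28.9 FPKM in clec16a MO libraries and 155, 153 and 143 FPKM in control MO libraries (log2 difference −2.38, adjusted p = 3e-05). psmb1 had 160.0, 72.1 and 104 FPKM in clec16a MO libraries against 411, 410.1 and 401 FPKM in control MO libraries (log2 difference −1.93, adjusted p = 0.0003). psmb4 differed less, by −1.20 on the log2 scale (adjusted p = 0.0018), and lost its call with median centring. Against these, psmb3 had 535, 364 and 436 FPKM in clec16a MO libraries and 296, 281 and 286 FPKM in control MO libraries (log2 difference 0.61, SE 0.14, adjusted p = 0.0051), again without overlap.

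Of the inducible beta subunits, which in mammals replace the constitutive protease subunits after interferon, psmb10 was tested. This counterpart of psmb7 had 0.185, 0 and 0.0772 FPKM in clec16a MO libraries and 8.22, 7.44 and 8.51 FPKM in control MO libraries (limma log2 difference −3.06, SE 0.12, adjusted p = 7.9e-07). psmb12 did not reach the filter, with 2.56, 1.0 and 0 FPKM in clec16a MO libraries, and was listed at 0 in each control MO library. No row was named psmb8, psmb9 or psmb13, with or without a paralogue letter. Of the alpha names, psma6l also stayed below the filter, at 0 to 0.255 FPKM in clec16a MO libraries and 0 to 0.271 FPKM in control MO libraries.

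**Figure D2:**
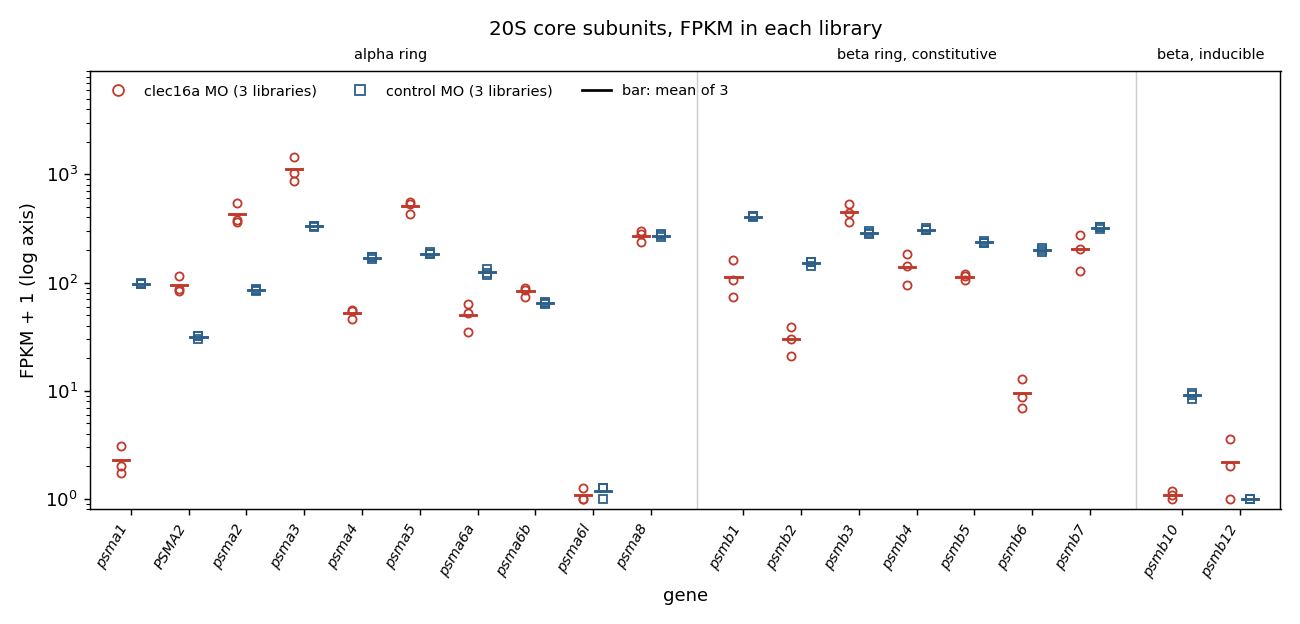
FPKM + 1 of the 20S core subunits (log axis) in each library, clec16a MO libraries left of control MO libraries for each gene. Each point is 1 library, and bars are means of 3. The control MO libraries lie close together for every gene tested, psma1 and psmb6 are far lower in clec16a MO libraries, and psma2, psma3 and psma5 are higher.

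In the 19S base, the ATPases moved both ways: 2 of 7 rose (28.6%), 3 fell (42.9%) and 2 did not pass, beside 26.7% higher and 54.6% lower of all genes. The counts were 3, 2 and 2 with median centring (39.7% higher and 38.1% lower of all genes). After quantile normalization they were 2, 5 and 0 (38% and 39.8% of all genes). psmc6 had 729, 627 and 546 FPKM in clec16a MO libraries and 185, 193 and 194 FPKM in control MO libraries, a 3.33-fold rise (limma log2 difference 1.72, SE 0.12, adjusted p = 7.2e-06). psmc5, which was at a level like that of psmc6 in control MO libraries, had 94.0, 64.2 and 64.2 FPKM in clec16a MO libraries and 182, 176 and 177 FPKM in control MO libraries (log2 difference −1.28, adjusted p = 0.00017). The ratio of psmc6 to psmc5 was therefore 7.76, 9.76 and 8.5 in clec16a MO libraries and 1.01, 1.09 and 1.1 in control MO libraries, a pair picked after its values were seen. psmc2 had 138, 102 and 99.3 FPKM in clec16a MO libraries and 171, 173 and 173 FPKM in control MO libraries (log2 difference −0.62, adjusted p = 0.0041), and with median centring its sign turned (0.07, not called). psmc3 had 113, 62.2 and 69.5 FPKM in clec16a MO libraries and 113, 109.9 and 113 FPKM in control MO libraries, and did not pass (adjusted p = 0.061). It was called lower in 5 of the 14 alternatives, quantile normalization (log2 difference −0.70), without clec16a MO replicate 1, the replicate block, array weights, and without globin, mitochondrial and ribosomal protein genes. With median centring its sign turned (0.19, not called). psmc4 had 169, 133 and 142 FPKM in clec16a MO libraries and 163, 168 and 166 FPKM in control MO libraries, with overlapping groups (adjusted p = 0.17). It was called higher with median centring (log2 difference 0.52), but lower with quantile normalization (−0.45) and without clec16a MO replicate 1 (−0.27).

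The remaining base subunits include psmd1, a scaffold on which ubiquitin receptors dock, and psmd4, itself a ubiquitin receptor. No row was named psmd2, which also belongs to this class. psmd1 had 4.99, 3.08 and 5.38 FPKM in clec16a MO libraries and 105, 106 and 117 FPKM in control MO libraries, 24.4-fold lower in clec16a MO cells (log2 difference −4.35, SE 0.18, adjusted p = 8.1e-07). Its span overlaps that of other genes in RefSeq, among them htr2b, and whether reads were counted by strand is not stated. The same limit holds for 13 more members, namely psmb1, psmb10, psmb12, psmc3ip, psmd6, psmd7, psmd8, psmd10, psme2, psme3, psmg1, cops7a and cops8, whose values may include reads of an overlapping gene.

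The 19S lid held the deepest fall of all members. psmd3, a structural lid subunit, had 2.32, 0.885 and 1.20 FPKM in clec16a MO libraries and 321, 335 and 333 FPKM in control MO libraries. It was 224-fold lower in clec16a MO cells (limma log2 difference −7.11, SE 0.20, adjusted p = 2.1e-07), although it was the most abundant lid subunit in the control MO libraries. The size of this fold rests on clec16a MO values near 1 FPKM and is imprecise. The lid subunit psmd8 was nearly constant within each group, at 496, 489 and 497 FPKM in clec16a MO libraries and 181, 174 and 183 FPKM in control MO libraries (log2 difference 1.46, SE 0.07, adjusted p = 1.6e-06). The ratio of psmd8 to psmd3, chosen after seeing the values, was 214, 552 and 413 in clec16a MO libraries and 0.563, 0.521 and 0.550 in control MO libraries. Of the 9 lid rows, 4 rose (44.4%), 3 fell (33.3%) and 2 did not pass, beside 26.7% higher and 54.6% lower of all genes. With median centring the counts were 6, 2 and 1 (39.7% higher and 38.1% lower of all genes). The deubiquitinating subunit psmd14 had 198, 118 and 149 FPKM in clec16a MO libraries and 150.4, 144 and 141 FPKM in control MO libraries, and the groups overlapped (log2 difference 0.06, adjusted p = 0.76, but called higher with median centring, 0.75). psmd7, the subunit that pairs with it, had 91.6, 80.4 and 71.6 FPKM in clec16a MO libraries against 37.2, 38.5 and 36.9 FPKM in control MO libraries (log2 difference 1.09, adjusted p = 5.9e-05). Of the other lid subunits, psmd12 rose (log2 difference 0.53, adjusted p = 0.0074), and psmd13 (−1.08, adjusted p = 0.00031) and psmd6 (−0.83, adjusted p = 0.0059) fell. The call of psmd6 was lost with median centring.

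**Figure D3:**
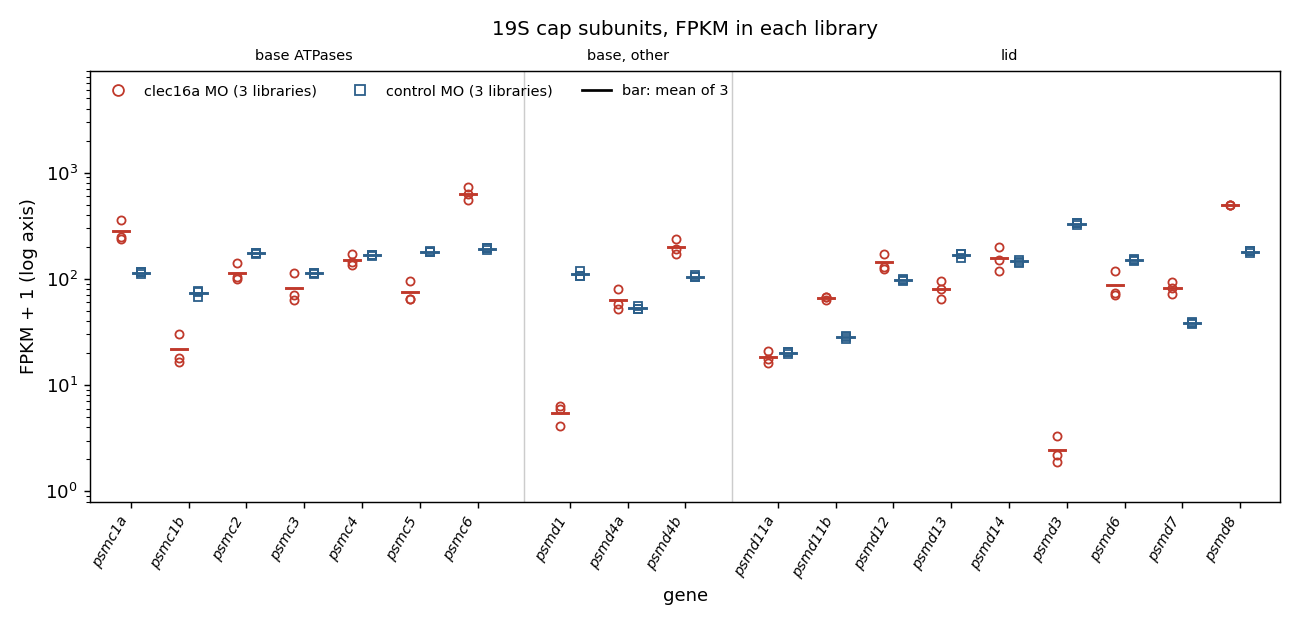
FPKM + 1 of the 19S cap subunits (log axis) in each library, clec16a MO libraries left of control MO libraries for each gene. Each point is 1 library, and bars are means of 3. psmd3 and psmd1 are lowest in clec16a MO libraries, where psmc6 (546 to 729 FPKM) and psmd8 (489 to 497 FPKM) are highest.

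Among the chaperones that assemble the cap, psmd5 fell, psmd9 rose and psmd10 did not pass. psmd5 had 1.9, 0.967 and 1.31 FPKM in clec16a MO libraries and 13.4, 13.2 and 14.2 FPKM in control MO libraries, 9.79-fold lower in clec16a MO cells (limma log2 difference −2.63, SE 0.16, adjusted p = 5.1e-06). psmd9 had 193, 122 and 143 FPKM in clec16a MO libraries against 64.7, 65.2 and 62.4 FPKM in control MO libraries (log2 difference 1.21, adjusted p = 0.00031). psmd10 had 34.8, 32.7 and 23.2 FPKM in clec16a MO libraries and 32.3, 33.5 and 32.2 FPKM in control MO libraries (adjusted p = 0.47, but called higher with median centring, log2 difference 0.56). Of the 3 chaperones of the core matched by name 2 rose and 1 did not pass, beside 26.7% of all genes called higher. With median centring all 3 were called higher, beside 39.7% of all genes. psmg1 and psmg2 form a pair that helps build the alpha ring, yet psmg2 had 188, 109 and 150.0 FPKM in clec16a MO libraries against 61.3, 61.0 and 60.5 FPKM in control MO libraries (log2 difference 1.24, adjusted p = 0.00052), while psmg1 overlapped, at 39.7, 21.3 and 30.1 FPKM in clec16a MO libraries and 35.1, 32.8 and 32.2 FPKM in control MO libraries (adjusted p = 0.46). psmg3 rose by 0.70 on the log2 scale (adjusted p = 0.00044).

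Activators open the core in place of the 19S cap. In clec16a MO cells 3 of the 5 activator and inhibitor genes tested rose while none fell, beside 26.7% and 54.6% of all genes. psme3, which encodes a nuclear activator, had 231, 252 and 173 FPKM in clec16a MO libraries and 40.9, 43.3 and 42.5 FPKM in control MO libraries, a 5.18-fold rise (limma log2 difference 2.33, SE 0.14, adjusted p = 4.9e-06). psme2 had 15.2, 17.2 and 13.4 FPKM in clec16a MO libraries and 0.786, 1.66 and 0.552 FPKM in control MO libraries (log2 difference 3.05, SE 0.22, adjusted p = 1e-05). psme1, whose product forms a ring with that of psme2, varied more: it had 7.16, 2.30 and 0.986 FPKM in clec16a MO libraries and 0.488, 0.455 and 0.454 FPKM in control MO libraries (log2 difference 1.36, SE 0.46, adjusted p = 0.028). The call of psme1 was lost with no filter on low values, without any one of the control MO replicates and without clec16a MO replicate 2 (adjusted p = 0.051). Without clec16a MO replicate 1, its highest library, psme1 did not reach the filter. psme4b had 7.56, 12.3 and 15.4 FPKM in clec16a MO libraries and 12.0, 11.7 and 11.1 FPKM in control MO libraries and did not pass (adjusted p = 0.89). The inhibitor psmf1 had 24.8, 18.2 and 18.7 FPKM in clec16a MO libraries and 17.2, 15.8 and 15.2 FPKM in control MO libraries (log2 difference 0.33, adjusted p = 0.066). It was called higher with quantile normalization (log2 difference 0.61) and without clec16a MO replicate 2 (0.40). psme4a stayed below the filter, at 0 to 0.224 FPKM in clec16a MO libraries and 0 to 0.0207 FPKM in control MO libraries. With median centring all 5 activator and inhibitor genes were called higher, beside 39.7% of all genes.

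In mammals interferon induces psme1, psme2 and psmb10 together, and here psme1 and psme2 rose while psmb10 fell. Here psmb10 was the only inducible beta subunit tested, and the call of psme1 was lost under several alternatives. Of the antigen presentation and interferon response list, 4 of 11 measured genes were tested, and 3 fell while none rose, beside 54.6% and 26.7% of all genes. These were the transcription factor genes stat1a (1.28, 2.48 and 4.4 FPKM in clec16a MO libraries against 6.68, 6.76 and 7.24 FPKM in control MO libraries, adjusted p = 0.0075) and irf8 (log2 difference −0.85, adjusted p = 0.012), and b2ml, which encodes a light chain of class I molecules (log2 difference −1.15, adjusted p = 9.2e-05). Another light chain gene, b2m, did not pass (log2 difference 0.21, adjusted p = 0.19). With either rescaling of the libraries 1 of the 4 was called lower and 1 higher. Of all genes, median centring called 38.1% lower and 39.7% higher, and quantile normalization 39.8% and 38%.

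**Figure D4:**
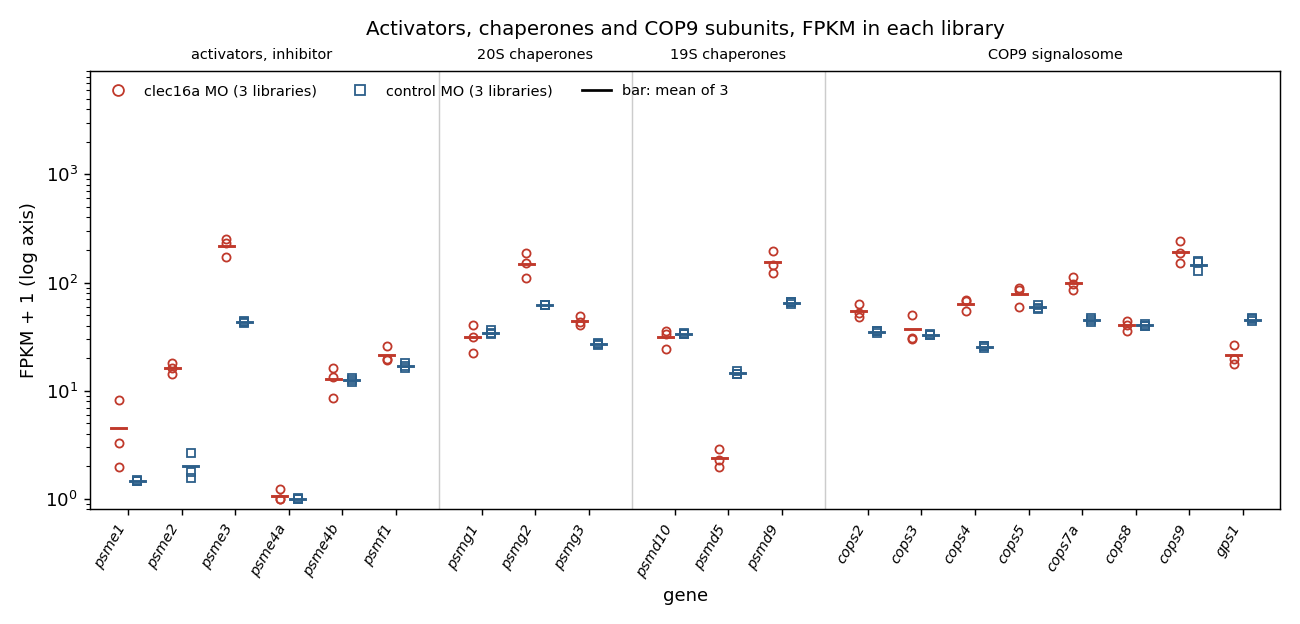
FPKM + 1 of the assembly chaperones, activators, inhibitor and COP9 subunits (log axis) in each library, clec16a MO libraries left of control MO libraries for each gene. Each point is 1 library, and bars are means of 3. psme2 and psme3 are well above their control MO values, psmd5 is well below, and the COP9 subunits lie nearer to theirs.

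The COP9 signalosome also moved both ways. Of the 8 subunits matched by name 3 rose (37.5%), 1 fell (12.5%) and 4 did not pass. Of all genes tested, 26.7% rose and 54.6% fell. In either direction 50% of the COP9 subunits were called, beside 81.3% of all genes. The median log2 difference of the COP9 subunits was 0.37, and no row was named cops6. gps1, the one that fell, had 25.7, 16.8 and 18.8 FPKM in clec16a MO libraries and 45.6, 42.9 and 44.7 FPKM in control MO libraries (limma log2 difference −1.11, SE 0.16, adjusted p = 0.0004). cops4 had 65.9, 67.5 and 53.2 FPKM in clec16a MO libraries against 23.7, 24.7 and 25.1 FPKM in control MO libraries (log2 difference 1.3, SE 0.11, adjusted p = 2.9e-05). cops7a had 113, 83.8 and 97.1 FPKM in clec16a MO libraries against 44.0, 46.3 and 42.3 FPKM in control MO libraries (log2 difference 1.12, adjusted p = 9.3e-05). cops2 rose by 0.63 on the log2 scale (adjusted p = 0.0018). The catalytic subunit cops5, which cleaves Nedd8 from cullins, had 84.7, 87.3 and 59.0 FPKM in clec16a MO libraries and 57.5, 61.5 and 56.6 FPKM in control MO libraries, with no call (log2 difference 0.37, adjusted p = 0.063). It was called higher without clec16a MO replicate 3 (log2 difference 0.55) and with the replicate block (0.37). The small subunit cops9, the most abundant of the complex, had 240.3, 149 and 186 FPKM in clec16a MO libraries and 156, 154 and 126 FPKM in control MO libraries (adjusted p = 0.088, but called higher without clec16a MO replicate 2, log2 difference 0.55). cops3 had 49.0, 29.7 and 29.3 FPKM in clec16a MO libraries and 31.9, 32.2 and 31.9 FPKM in control MO libraries (adjusted p = 0.58). cops8 had 39.5, 34.6 and 43.3 FPKM in clec16a MO libraries and 38.8, 40.4 and 38.3 FPKM in control MO libraries (adjusted p = 0.95). For cops9, cops3 and cops8 the groups overlapped, and so they did for cops5. Median centring gave 7 COP9 subunits called higher and gps1 called lower, beside 39.7% and 38.1% of all genes. Quantile normalization gave 3 and 1, beside 38% and 39.8% of all genes.

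Of the 2 genes matched by name only, psmc3ip, a meiotic recombination factor in mammals, had 71.7, 55.8 and 58.1 FPKM in clec16a MO libraries and 6.23, 4.92 and 6.08 FPKM in control MO libraries (limma log2 difference 3.22, SE 0.14, adjusted p = 9.6e-07). psme3ip1, whose human product binds the nuclear activator, had 12.5, 8.07 and 9.36 FPKM in clec16a MO libraries and 17.01, 16.8 and 14.8 FPKM in control MO libraries (log2 difference −0.66, adjusted p = 0.0072). Its call was lost under both rescalings, with a difference of 0.03 after median centring and −0.26 after quantile normalization.

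For 5 subunits the table holds paralogue pairs, and the ratio within a library does not depend on a common factor applied to that library. Quantile normalization, which moves genes unequally, can change it. psmc1a was at 361, 247 and 237 FPKM in clec16a MO libraries and 109, 115 and 116 FPKM in control MO libraries (log2 difference 1.28, limma adjusted p = 0.00022). Its copy psmc1b was at 29.5, 15.5 and 17.2 FPKM in clec16a MO libraries and 73.8, 65.9 and 75.8 FPKM in control MO libraries (log2 difference −1.80, adjusted p = 0.00021). The ratio of psmc1a to psmc1b was 12.2, 15.9 and 13.8 in clec16a MO libraries and 1.48, 1.75 and 1.53 in control MO libraries.

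The psma6 pair also moved in opposite directions. psma6b had 88.6, 72.6 and 84.4 FPKM in clec16a MO libraries against 64.8, 63.6 and 62.4 FPKM in control MO libraries (log2 difference 0.35, limma adjusted p = 0.012, not called with quantile normalization). psma6a had 62.8, 33.6 and 51.1 FPKM in clec16a MO libraries against 131, 122 and 116 FPKM in control MO libraries (log2 difference −1.35, adjusted p = 0.00072). The ratio of psma6b to psma6a was 1.41, 2.16 and 1.65 in clec16a MO libraries and 0.493, 0.522 and 0.536 in control MO libraries, so the more abundant copy differed between the groups.

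In the lid, psmd11b had 65.7, 62.1 and 66.4 FPKM in clec16a MO libraries against 27.1, 26.0 and 28.0 FPKM in control MO libraries (log2 difference 1.23, limma adjusted p = 7.8e-06). Its copy psmd11a had 19.9, 16.7 and 15.1 FPKM in clec16a MO libraries and 19.5, 19.3 and 18.7 FPKM in control MO libraries and did not pass (adjusted p = 0.27). That copy was called lower without clec16a MO replicate 1 (log2 difference −0.26) and higher with median centring (0.54). psmd4b had 234, 191 and 171 FPKM in clec16a MO libraries against 102, 102 and 108 FPKM in control MO libraries (log2 difference 0.92, adjusted p = 0.0003), and psmd4a had 79.7, 50.7 and 57.0 FPKM in clec16a MO libraries against 53.9, 51.5 and 51.1 FPKM in control MO libraries (adjusted p = 0.23, but called higher with median centring). The ratios were 3.30, 3.73 and 4.41 in clec16a MO libraries against 1.39, 1.35 and 1.5 in control MO libraries for psmd11b over psmd11a, and 2.94, 3.76 and 3.01 against 1.89, 1.99 and 2.1 for psmd4b over psmd4a. For psma2 over PSMA2 the ratio was 4.84, 4.39 and 4.39 in clec16a MO libraries and 2.80, 2.66 and 2.91 in control MO libraries. In each of the 5 pairs the groups did not overlap, and the two-sided exact permutation p was 0.1 for each, the smallest that 3 against 3 libraries allow. Single genes did not overlap for 83.7% of all genes tested, and the share over other pairs of genes was not computed. The copy with the larger log2 difference was set on top in each pair, so the shared direction of the ratios is no result.

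**Figure D5:**
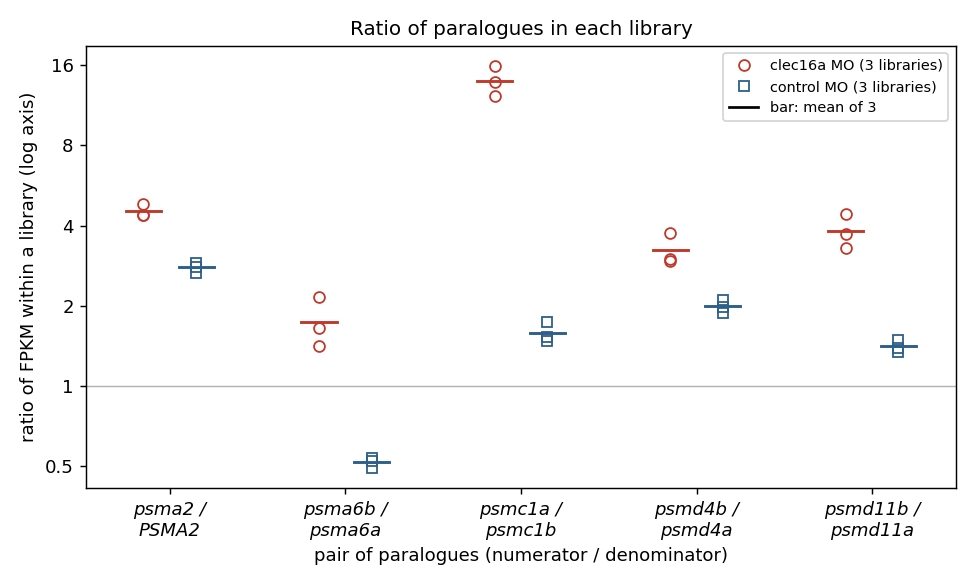
Ratio of the FPKM of 2 paralogues within each library (log axis) for the 5 paralogue pairs, clec16a MO libraries left of control MO libraries. Each point is 1 library. In each pair the copy with the larger log2 difference is on top, which makes all 5 ratios higher in clec16a MO libraries. The psmc1a to psmc1b ratio differs most (12.2 to 15.9 against 1.48 to 1.75).

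Subunits built into one complex were further apart in clec16a MO cells. Over the 16 constitutive 20S rows tested, the SD of log2(FPKM + 1) was 2.22, 2.30 and 2.28 in clec16a MO libraries and 1.003, 1.005 and 1.01 in control MO libraries. In the constitutive beta ring, the highest subunit stood 45.3, 61.9 and 55.9 times above the lowest (psmb3 over psmb6) in clec16a MO libraries and 2.65, 2.68 and 2.81 times (psmb1 over psmb2) in control MO libraries. Among the ATPases this span was 24.7, 40.3 and 31.8 times in clec16a MO libraries and 2.50, 2.92 and 2.56 times in control MO libraries, both set by psmc6 over psmc1b. Paralogues count as separate rows here and in the 20S SD, and psmc1b is the lesser copy beside psmc1a. For psmc6 over psmc5, neither with a paralogue row, the ratio was 7.76, 9.76 and 8.5 in clec16a MO libraries. In control MO libraries it was 1.01, 1.09 and 1.1, and this pair was picked after its values were seen. The COP9 subunits spread less, with an SD of 0.986 to 0.992 in clec16a MO libraries and 0.690 to 0.803 in control MO libraries. Genes at large, with members of these complexes not removed, spread more in clec16a MO libraries too. Over the 4840 genes tested with a mean of 10 to 500 FPKM across the 6 libraries, the SD was 1.88 to 1.91 in clec16a MO libraries and 1.56 to 1.58 in control MO libraries. psma3 lies above this window, and whether the subunits differ from these genes was not tested.

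Summed over genes, the proteasome transcripts differed less between groups than many single subunits, as rises and falls offset in a sum. No protein level was measured. Proteasome genes took 1.55%, 1.22% and 1.27% of the summed FPKM in clec16a MO libraries (1.35 ± 0.177, SD, n = 3) and 1.197%, 1.196% and 1.22% in control MO libraries (1.203 ± 0.0116). COP9 genes took 0.122%, 0.104% and 0.105% in clec16a MO libraries (0.110 ± 0.00979, SD, n = 3) and 0.0854%, 0.0870% and 0.0818% in control MO libraries (0.0848 ± 0.00267). Neither share overlapped between groups, but the proteasome share of clec16a MO replicate 2 and that of control MO replicate 3 were almost equal. Taken apart, the shares overlapped: the constitutive 20S subunits took 0.587% to 0.819% in clec16a MO libraries and 0.652% to 0.657% in control MO libraries, and the 19S cap subunits 0.477% to 0.588% and 0.478% to 0.499%. Replicate 1 was the highest of the 3 clec16a MO libraries for 45 of the 57 members tested (78.9%), beside 41.6% of all genes tested. The median SD of a member was 22.9% of its mean in clec16a MO libraries and 2.78% in control MO libraries (25.9% and 6.28% over all genes tested).

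Outside the name rule, 18 of 20 measured rows of proteasome partners were tested, and 3 rose (16.7%), 12 fell (66.7%) and 3 did not pass, beside 26.7% and 54.6% of all genes. With median centring 6 were called higher and 7 lower, beside 39.7% and 38.1% of all genes. The ubiquitin receptor gene adrm1, whose product docks on that of psmd1, had 5.42, 3.82 and 3.62 FPKM in clec16a MO libraries and 42.9, 41.4 and 40.1 FPKM in control MO libraries (log2 difference −3.02, limma adjusted p = 1.6e-06). uchl5, a deubiquitinase that the adrm1 product holds on the cap, went the other way, with 531, 422 and 382 FPKM in clec16a MO libraries and 62.9, 63.7 and 61.5 FPKM in control MO libraries (log2 difference 2.79, adjusted p = 1.3e-06). The shuttle factor genes rad23aa (log2 difference −1.60) and ubqln4 (−1.15), the proteasome import factor gene akirin2 (−1.59) and nploc4, a cofactor of the unfolding ATPase Vcp (−1.89), fell too, with adjusted p-values of 3.8e-05, 3.7e-05, 3.9e-05 and 9.3e-05 in that order.

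Of 9 tested rows for ubiquitin, its activating enzyme and ubiquitin hydrolases, 7 fell (77.8%) and 1 rose (11.1%), beside 54.6% and 26.7% of all genes. With median centring 5 were called lower and 2 higher, beside 38.1% and 39.7% of all genes. The polyubiquitin gene ubc had 25.1, 11.7 and 15.99 FPKM in clec16a MO libraries and 660.3, 647 and 653 FPKM in control MO libraries (log2 difference −5.20, limma adjusted p = 1.3e-06). The ubiquitin-ribosomal fusion gene rps27a (log2 difference −2.03), the activating enzyme gene uba1 (−2.43) and the row ubb (−1.72) also fell. A row named UBB in capitals fell less, with means of 178 FPKM in clec16a MO and 274 FPKM in control MO libraries (log2 difference −0.63, limma adjusted p = 0.0039). UBB lies outside the rule for named genes and was given because it shares the name. The deubiquitinase gene otub1b rose by 1.84 on the log2 scale (adjusted p = 4.6e-06).

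Of 27 tested rows for neddylation and cullin-RING ligases, the enzymes and substrates opposite the COP9 signalosome, 10 rose (37.0%), 13 fell (48.1%) and 4 did not pass, beside 26.7% and 54.6% of all genes. With median centring 16 were called higher and 9 lower, beside 39.7% and 38.1% of all genes. Of the cullin-4 ligase, the adaptor gene ddb1 was listed at 0 in all 3 clec16a MO libraries and had 15.9, 16.7 and 17.5 FPKM in control MO libraries, and cul4a had 0.235, 0.133 and 0.244 FPKM in clec16a MO libraries and 4.96, 5.55 and 6.08 FPKM in control MO libraries (log2 difference −2.44, limma adjusted p = 1.8e-06). The neddylation cofactor gene dcun1d1 had 237, 280.1 and 182 FPKM in clec16a MO libraries and 29.7, 30.4 and 28.7 FPKM in control MO libraries (log2 difference 2.91, adjusted p = 2.4e-06). The genes of Elongin C, an adaptor of the cullin-2 and cullin-5 ligases, rose (elocb 2.84 and eloca 2.46 on the log2 scale), while the 2 rows of its partner elob moved in opposite directions (1.97 and −1.28, adjusted p = 4.8e-06 and 0.001). The 2 Nedd8-conjugating enzyme genes also parted: ube2f rose (1.92, adjusted p = 2.6e-06) and UBE2M fell (−3.21, adjusted p = 1.5e-05). elob and UBE2M lie outside the rule for named genes and were chosen after their values were seen.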

How the data were processed

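RNA of GFP+ cells was measured in 6 libraries, 3 clec16a MO and 3 control MO, grouped by the genotype label. Per the labels' protocols, cDNA from an oligo(dT) primer with template switching was PCR-amplified and then fragmented for paired-end sequencing. FPKM values were deposited by the authors, 1 column per library. The submitters' processing notes name cutadapt 1.9, HISAT2 2.2.1 and StringTie 2.1.6, without settings. No genome build is given in the sources used here, and coordinates are therefore not printed. Because FPKM is relative, a gene that takes more of a library lowers the others.

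Of 21853 rows, 16 that carried a date in place of a name were left out. The 12153 rows with a mean of at least 1 FPKM were tested as log2(FPKM + 1), a scale that understates the change of low genes, with limma 3.58.1 (R 4.3.3), moderated with a mean-variance trend, two-sided, with Benjamini-Hochberg adjustment over all rows tested and a threshold of 0.05. Differences are clec16a MO minus control MO, and folds are ratios of mean FPKM. Ratios within libraries were compared with exact permutation tests (SciPy 1.17.1), and figures drawn with matplotlib 3.10.9 (Python 3.11.15).

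Depth is unknown. Steps of whole reads were sought among low values: at most 25 of 4174 to 4501 genes in a pair of clec16a MO libraries, and 58 of 6064 to 6090 in a pair of control MO libraries, shared 1 ratio, so no depth was recovered. An exact 0 can be a failed estimate, and such genes are called listed at 0.

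The members, lists and tests were chosen with earlier results of these data known, so list-wide p-values are not given and the planned test of the members' share of summed FPKM is not reported. Values in each library were given for the 10 largest falls and 10 largest rises, members alone in their direction within a class, paralogue pairs, inducible subunits and activators. From each other list up to 6 genes with the smallest adjusted p were named, some with values in each library and some with the log2 difference only. The values of 1 gene that this rule names are not reported here. Further members were given to show a subunit's role. RefSeq names (GRCz12tu) matched 58 of the 60 members, and 14 members' spans there overlap another gene. Alternatives were 2 rescalings, a pseudocount of 0.1, no filter, leaving out each replicate, a replicate block, summed rows, array weights, and, chosen after seeing the data, leaving out globin, mitochondrial and ribosomal protein genes.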

Additional observations from a re-analysis of the deposited data

How the results depend on the processing

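Of the 57 members tested, 36 kept their direction and their side of the threshold under all 14 alternatives, and 21 changed under at least 1. The scaling of the libraries mattered most. With median centring 36 members were called higher, beside 39.7% of all genes. The log2 difference turned positive for psmc2 (0.0748), psme3ip1 (0.0274), psmd10 (0.56), psmc3 (0.19), psmc4 (0.52), psmd11a (0.54), psma8 (0.69), psmg1 (0.52), cops8 (0.69) and psme4b (0.66). Only psmc2 and psme3ip1 of these had been called, as lower, and the sign turns because centring moves every gene up. Quantile normalization called psma8 and psmc4 lower instead (−0.26 and −0.45). Leaving out each replicate in turn gave 22 to 24 members higher and 19 to 23 lower. The calls over all genes moved too, from 3239 higher and 6638 lower with no library left out. Without a control MO replicate, fewer of all genes were called in each direction. Without a clec16a MO replicate, more were called lower, and more higher except without replicate 3. The number of genes tested also moved, from 11873 to 12357 across these alternatives. With no filter on low values 10430 of all 21837 genes were called lower, a count that includes genes near 0. Without globin, mitochondrial and ribosomal protein genes the proteasome took 1.57% of the summed FPKM in clec16a MO libraries and 1.34% in control MO libraries, and COP9 0.128% and 0.0944%. The replicate block, from the numbers that end the titles, gave 24 members higher and 21 lower. Of all genes, it called 3239 higher, as without the block, and slightly fewer than 6638 lower. The labels do not say whether the title numbers pair the libraries. The deviations of same-numbered libraries from their group means correlated at 0.044, −0.018 and 0.005, and those of other pairs at −0.046 to 0.044. Such values show no shared effect of the number, but cannot tell whether samples were paired. The unknown depth gives low values such as those of psme1, psme4a and psmb12 no counting interval. The same holds for psmd3, psma1, psmd5 and psmb10 in clec16a MO libraries, so the size of their falls is uncertain.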
